A study of Rattus norvegicus with 4 samples.

Results

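Receptors for acetylcholine, serotonin, noradrenaline, dopamine and histamine were followed in the brains of rats after intracerebral hemorrhage, which is bleeding within the brain. The genes were all entries of the deposited expression table whose symbols belong to the muscarinic and nicotinic acetylcholine receptors, the serotonin (5-HT) receptors, the adrenergic receptors, the dopamine receptors D3, D4 and D5, and the histamine receptors. This gave 47 of 17853 genes, of which 23 reached a mean of 1 RPKM over the libraries. Htr2b, Htr3b, Chrnd and Chrng were not analysed here. The 4 groups were the ipsilateral and the contralateral brain of rats 13 months old, and the same sides of rats 21 months old, the ipsilateral side being that of the bleeding. All 4 groups carried the hemorrhage, so the contralateral side is not tissue of healthy rats, and strain, sex, hemorrhage model and time after bleeding are not given in the labels. Each group was 1 library of polyadenylated RNA, made from RNA that was pooled from 9 rat brains per the labels' protocols, which do not state whether each library drew on 9. There were no replicates, so single values carry no error, and a ratio of 2 libraries carries no test.

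These receptors carry the signals of a few small groups of neurons, in the basal forebrain, brainstem and hypothalamus, whose axons reach much of the brain. Nicotinic receptors and the serotonin receptor 5-HT3 are ion channels built of several subunits. The others act through G proteins: Gq raises calcium through phospholipase C, Gs raises cyclic AMP and Gi lowers it. Many are found on neurons, but glia, blood vessels, the choroid plexus and immune cells carry some of them too.

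The library depths are unknown, because the table holds RPKM and no read counts. RPKM is already divided by gene length, but the lengths and the counting of reads are not given and the genome build is not settled. Orders of level between genes below are therefore those of the listed values and were not checked. The ipsilateral libraries listed 12265 (13 months) and 12242 (21 months) genes at 1 RPKM or more, and the contralateral ones 11818 and 11814. Of 10 defining neuron markers 9 averaged at least 1 RPKM, with Rbfox3 at 83.21 RPKM or more in every library, while Eno2 was at most 0.05 RPKM in every library. The RPKM of the 10 summed to 1250 and 1730 at 13 months and to 1387 and 1691 at 21 months, ipsilateral first. The ipsilateral sums lay below the contralateral ones at both ages. For 9 markers of microglia and macrophages the sums were 481 and 139, then 485 and 127, so these markers were higher on the ipsilateral side at both ages. In bulk tissue, fewer cells of a type and less RNA per cell cannot be told apart.

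The receptor genes together were lowest in 1 library. Summed over the 47 genes, RPKM came to 75.8 in the 13 month ipsilateral library, 105.27 in the 13 month contralateral one, 105.23 in the 21 month ipsilateral one and 103.12 in the 21 month contralateral one. Of the 23 genes averaging at least 1 RPKM, 19 had their lowest value in the 13 month ipsilateral library, which held the lowest value of 32.1% of all 12160 genes past the same filter. Among the exceptions were Adrb1, lowest in the 13 month contralateral library, and Htr2a and Htr5a, lowest in the 21 month ipsilateral one. Highest in the 21 month ipsilateral library were 8 of the 23 genes, against 33.1% of all genes. Highest in the 13 month ipsilateral library were 0 of the 23, against 31.5%.

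**Figure D1:**
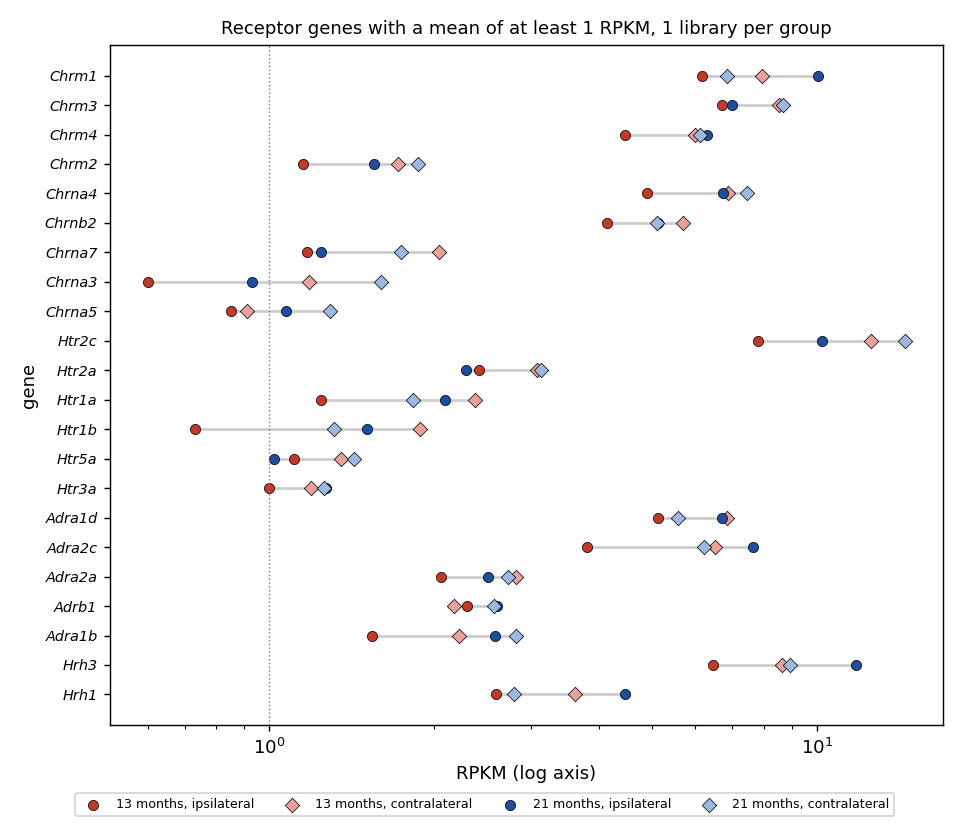
RPKM on a log axis of receptor genes averaging at least 1 RPKM, grouped by receptor family, with 1 point for each of the 4 libraries and a grey line over their range. The red circles of the 13 month ipsilateral library lie leftmost for 19 genes, and both circles of Htr2c (7.81 and 10.24 RPKM) lie to the left of both of its contralateral diamonds (12.57 and 14.47 RPKM).

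Among the muscarinic receptors, Chrm1 and Chrm3 had the highest levels. Chrm1 (ENSRNOG00000018385, chromosome 1) encodes M1, the Gq-coupled receptor of cortical and hippocampal neurons. It was listed at 6.17 RPKM ipsilaterally against 7.94 RPKM contralaterally at 13 months, and at 10.03 against 6.86 RPKM at 21 months. The ipsilateral side was the lower one at 13 months and the higher one at 21 months, with log2 ratios (1 RPKM added to each value) of -0.32 and 0.49. Chrm3 (ENSRNOG00000049410, chromosome 17), another Gq-coupled receptor, was listed at 6.71 RPKM ipsilaterally against 8.52 RPKM contralaterally at 13 months, and at 7.0 against 8.69 RPKM at 21 months. Its ipsilateral libraries lay below its contralateral ones at both ages, with log2 ratios of -0.30 and -0.28.

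The Gi-coupled muscarinic receptors are M2, an autoreceptor on cholinergic terminals, and M4, which opposes dopamine D1 signalling in the striatum. Chrm4 was listed at 4.46 RPKM ipsilaterally against 5.99 RPKM contralaterally at 13 months, and at 6.31 against 6.12 RPKM at 21 months. It was low in the 13 month ipsilateral library alone. Chrm2 was listed at 1.15 against 1.72 RPKM at 13 months, and at 1.55 against 1.87 RPKM at 21 months, the ipsilateral side being lower each time. Chrm5, the M5 receptor of midbrain dopamine neurons, was below the filter at 0.20 to 0.36 RPKM.

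Of 14 nicotinic subunits in the table, 5 passed the filter. Chrna4 and Chrnb2 encode the subunits of the most common high-affinity nicotinic receptor of the brain, and they had the highest levels of the subunits. Chrna4 was listed at 4.90 RPKM ipsilaterally against 6.88 RPKM contralaterally at 13 months, and at 6.73 against 7.46 RPKM at 21 months. Chrnb2 was listed at 4.13 against 5.69 RPKM, then at 5.13 against 5.10 RPKM. For both genes the side ratio was further from 0 at 13 months (-0.42 and -0.38) than at 21 months (-0.13 and 0.01).

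Chrna7 encodes the subunit of the homomeric alpha-7 receptor, which is also known from macrophages. It was listed at 1.17 RPKM ipsilaterally against 2.04 RPKM contralaterally at 13 months, and at 1.24 against 1.74 RPKM at 21 months. Both ipsilateral values lay below both contralateral ones, while the microglia and macrophage markers went the other way. Chrna3 and Chrna5 are neighbours in a gene cluster with Chrnb4 and are known from the medial habenula and autonomic ganglia. Chrna3 was listed at 0.60 against 1.18 RPKM, then at 0.93 against 1.60 RPKM, again lower on the ipsilateral side at both ages. Chrna5 was listed at 0.85 against 0.91 RPKM, then at 1.07 against 1.29 RPKM, a smaller gap. Of 8 habenula and thalamus markers 6 passed the filter. In limma 2 of the 6 fell, Tcf7l2 and Slc17a6 (log2 changes of -0.58 and -0.54), against 0.814% of all genes, and 0 rose. Side ratios lay below 0 for 4 of the 6 at 13 months, against 48.9% of all genes, and for 5 at 21 months, against 38.9%. Prkcd lay above 0 at both ages (0.06 and 0.04) and Rora at 13 months (0.15). The habenula marker Gpr151 was at most 0.33 RPKM in every library. Whether tissue of this region differed between the samples was not tested.

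Among the serotonin receptors, Htr2c (ENSRNOG00000030877, chromosome X) had the highest level, as it did among all 47 genes. It encodes 5-HT2C, a Gq-coupled receptor that is abundant in the choroid plexus and present on many neurons. Htr2c was listed at 7.81 RPKM ipsilaterally against 12.57 RPKM contralaterally at 13 months, and at 10.24 against 14.47 RPKM at 21 months. Both ipsilateral values lay below both contralateral ones, and log2 ratios were -0.62 and -0.46. In limma, fitted to all genes with 2 libraries per side, Htr2c fell by 0.54 ± 0.17 on the log2 scale (SE, adjusted p = 0.034 in limma). That SE draws on a variance that limma shares over all genes and is not a spread between animals. For Chrna7 it was 0.17 as well. The call was lost with 0.1 RPKM added (adjusted p = 0.059 in limma), with no filter (0.16) and with a mean of at least 5 RPKM (0.059), and it held under both other scalings. Most choroid plexus markers moved the same way: 5 of 7 measured markers fell in limma, against 0.814% of all genes. Folr1 (log2 side ratios of -0.49 and 0.32) and F5 (0.37 and -0.40) changed direction between ages and did not pass. The RPKM of the 7 markers summed to 674 and 1226 at 13 months and to 1070 and 1804 at 21 months, ipsilateral first. The largest of them was Ttr, at 656 and 1200.3 RPKM, then 1049 and 1767 RPKM, and the part of choroid plexus in the Htr2c values was not tested.

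The 250 bases before the Htr2c start are shown with those of Hrh1 and Adra2c, receptor genes described below that were high in the 21 month ipsilateral library, to set side by side the upstream sequence of a gene low on the ipsilateral side at both ages and of genes low there at 13 months only. These 3 were picked out after their values were seen, from genes whose window ends at the outermost start of the gene, and run 5′ to 3′ on the gene's strand (RefSeq, build GRCr8). Capitals mark matches to GGGCGG, the GC box, on either strand. They lie at chrX:115452940-115453189 (plus strand), chr4:149120261-149120510 (plus strand) and chr14:79697477-79697726 (minus strand).
Htr2c: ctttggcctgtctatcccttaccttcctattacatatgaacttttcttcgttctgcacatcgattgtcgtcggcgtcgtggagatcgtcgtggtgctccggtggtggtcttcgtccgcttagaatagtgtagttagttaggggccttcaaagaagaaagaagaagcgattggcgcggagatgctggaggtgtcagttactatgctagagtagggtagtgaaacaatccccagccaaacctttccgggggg
Hrh1: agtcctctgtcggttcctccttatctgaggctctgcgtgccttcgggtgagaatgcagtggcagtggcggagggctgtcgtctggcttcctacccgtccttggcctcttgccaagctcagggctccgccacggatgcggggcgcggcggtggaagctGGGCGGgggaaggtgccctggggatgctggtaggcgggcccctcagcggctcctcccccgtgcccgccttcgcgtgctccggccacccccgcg
Adra2c: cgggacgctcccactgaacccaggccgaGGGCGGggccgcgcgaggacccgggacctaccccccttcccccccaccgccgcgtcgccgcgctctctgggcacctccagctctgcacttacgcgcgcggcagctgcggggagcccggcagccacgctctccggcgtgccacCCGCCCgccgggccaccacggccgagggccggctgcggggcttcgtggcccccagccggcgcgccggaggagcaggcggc

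The Htr2c window held 50.4% G and C with 15 CpG pairs and 0 GC boxes, the Hrh1 window 70.4% with 22 CpG pairs and 1 GC box, and the Adra2c window 80.4% with 36 CpG pairs and 2 GC boxes. Over 27457 RefSeq windows of the same length the median was 52.0% with 6 CpG pairs. Of the 23 receptor genes past the filter 19 had a window, with a median of 66.0% and 21 CpG pairs. The RefSeq windows were taken whatever the level of the gene, whereas the 19 had passed the filter. Some of the 19, Chrna4 and Hrh3 among them, have a window that does not end at the outermost start of the gene. The Htr2c and Adra2c windows had the lowest and the highest G and C content of the 19, so the windows shown are extremes. Other genes went the other way. Chrna4, lower ipsilaterally at both ages, had 74.4% and 3 GC boxes, and Htr1b, lower there at 13 months only, had 52.4% and 0 GC boxes. A GC box was found in 12 of the 19 (63.2%) and in 32.4% of all windows. A TATA box (TATAAA, both strands) was found in 0 of the 19 and in 13.1% of all windows, and an AP-1 site (TGANTCA, both strands) in 0 of the 19 and in 6.36%. Windows with the CCAAT box (CCAAT, both strands) numbered 5 of the 19 (26.3%), against 34.3% of all windows, with 1 of these in Htr2c. The short core of the cAMP response element (TGACG, both strands) was in 4 (21.1%, against 19.0%) and the E-box CACGTG in 2 (10.5%, against 5.79%). Across the 19 genes the correlation of G and C content with the change of the side ratio between ages was 0.13 by Pearson and 0.20 by Spearman, a description over genes that share the same 4 libraries.

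The other serotonin receptors were lower in level. Htr2a encodes 5-HT2A, the Gq-coupled receptor of cortical pyramidal neurons and platelets. It was listed at 2.41 RPKM ipsilaterally against 3.08 RPKM contralaterally at 13 months, and at 2.29 against 3.13 RPKM at 21 months, so the gap was alike at both ages (log2 ratios of -0.26 and -0.33). Htr5a, a Gi-coupled receptor, was listed at 1.11 against 1.35 RPKM, then at 1.02 against 1.43 RPKM. Its ipsilateral libraries also lay below its contralateral ones.

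Htr1a and Htr1b encode the Gi-coupled autoreceptors of serotonin neurons, 5-HT1A on cell bodies and 5-HT1B on terminals, which are found on other neurons as well. Htr1a was listed at 1.24 RPKM ipsilaterally against 2.37 RPKM contralaterally at 13 months, and at 2.09 against 1.83 RPKM at 21 months. Htr1b was listed at 0.73 against 1.88 RPKM, then at 1.51 against 1.31 RPKM. Both were lowest in the 13 month ipsilateral and highest in the 13 month contralateral library, and the 13 month side ratio of Htr1b (-0.74) was the lowest of the 23 genes. Htr3a, the channel subunit of cortical interneurons, was listed at 1.0 against 1.19 RPKM, then at 1.27 against 1.26 RPKM, a narrow range.

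The adrenergic receptors respond to noradrenaline and adrenaline, and their alpha branch was led by Adra1d and Adra2c. Adra1d, a Gq-coupled receptor, was listed at 5.13 RPKM ipsilaterally against 6.84 RPKM contralaterally at 13 months, and at 6.72 against 5.58 RPKM at 21 months. Adra2c (ENSRNOG00000009299, chromosome 14), a Gi-coupled receptor of striatal neurons and an autoreceptor, was listed at 3.81 against 6.52 RPKM, then at 7.63 against 6.21 RPKM. In both genes the lowest value was that of the 13 month ipsilateral library, and in Adra2c the 21 month ipsilateral value was 2.0 times as high as the 13 month one.

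Adra2a encodes the alpha-2A receptor, the main autoreceptor of noradrenaline neurons and a target of clonidine. It was listed at 2.06 against 2.82 RPKM, then at 2.51 against 2.73 RPKM, with the ipsilateral side lower at both ages. Adra1b, a Gq-coupled receptor known from the thalamus, cortex and pineal gland, was listed at 1.54 against 2.22 RPKM, then at 2.58 against 2.82 RPKM. Its values were higher at 21 than at 13 months on both sides, with log2 age ratios of 0.495, just under 0.5, and 0.25. Adrb1, the Gs-coupled beta-1 receptor, differed little between libraries, at 2.30 against 2.17 RPKM, then at 2.60 against 2.57 RPKM.

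Both histamine receptors past the filter switched the side with the higher value between ages. Hrh3 (ENSRNOG00000061153, chromosome 3) encodes H3, the Gi-coupled autoreceptor of histamine neurons that also dampens release of other transmitters. Hrh3 was listed at 6.46 RPKM ipsilaterally against 8.64 RPKM contralaterally at 13 months, and at 11.77 against 8.94 RPKM at 21 months, and was second in level to Htr2c. Hrh1 (ENSRNOG00000007420, chromosome 4), the Gq-coupled H1 receptor blocked by antihistamines, was listed at 2.59 against 3.62 RPKM, then at 4.46 against 2.80 RPKM. For both genes the 13 month ipsilateral library was the lowest and the 21 month ipsilateral library the highest of the 4, with the contralateral libraries between them.

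The side comparison at 13 months set the side of the bleeding against the other side in the younger rats. Of the 23 genes, 21 had a log2 side ratio below 0 and 2 above 0, whereas 48.9% of all genes lay below 0. The median of the 23 was -0.35, beside 0.01 over all genes. A ratio of -0.5 or less was found for 4 genes, Htr1b (-0.74), Adra2c (-0.64), Htr2c (-0.62) and Htr1a (-0.59), 17.4% of the 23 against 4.09% of all genes. A ratio of 0.5 or more was found for 1 gene, against 15.2% of all genes. Scaled without mitochondrial genes, 12.9% of all genes and 1 of the 23 were past 0.5 upward, and 8.52% of all genes and 6 of the 23 downward. Of the 24 genes under the filter 18 lay below 0, 4 above and 2 at 0. Against the 21 month contralateral library as comparator, 22 of the 23 lay below 0 and the median was -0.33.

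The same comparison at 21 months gave another picture. Of the 23 genes 11 lay below 0 and 12 above, against 38.9% and 60.8% of all genes. The median was 0.01, beside 0.09 over all genes. Past 0.5 in the upward direction were 2 genes, Hrh1 (0.52) among them, against 16.3% of all genes, and 0 genes were past -0.5, against 2.94%. The lowest ratios were those of Htr2c (-0.46) and Chrna3 (-0.43). With median-ratio scaling 12.8% of all genes and 1 of the 23 were past 0.5 upward, and 5.22% of all genes and 1 of the 23 downward. Under that scaling 15 of the 23 receptor genes lay below 0 and their median was -0.08, beside -0.005 over all genes. The sign of the receptor median thus turned with the scaling, but the scaling moved the median of all genes as well. Without mitochondrial genes the receptor median was -0.09, beside -0.01 over all genes. With no filter it was -0.01 beside 0.04, and against the 13 month contralateral library -0.03 beside 0.07. Under each of these settings, as in the main one, the receptor median lay below that of all genes. Of the 24 genes under the filter 13 lay below 0, 9 above and 2 at 0.

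**Figure D2:**
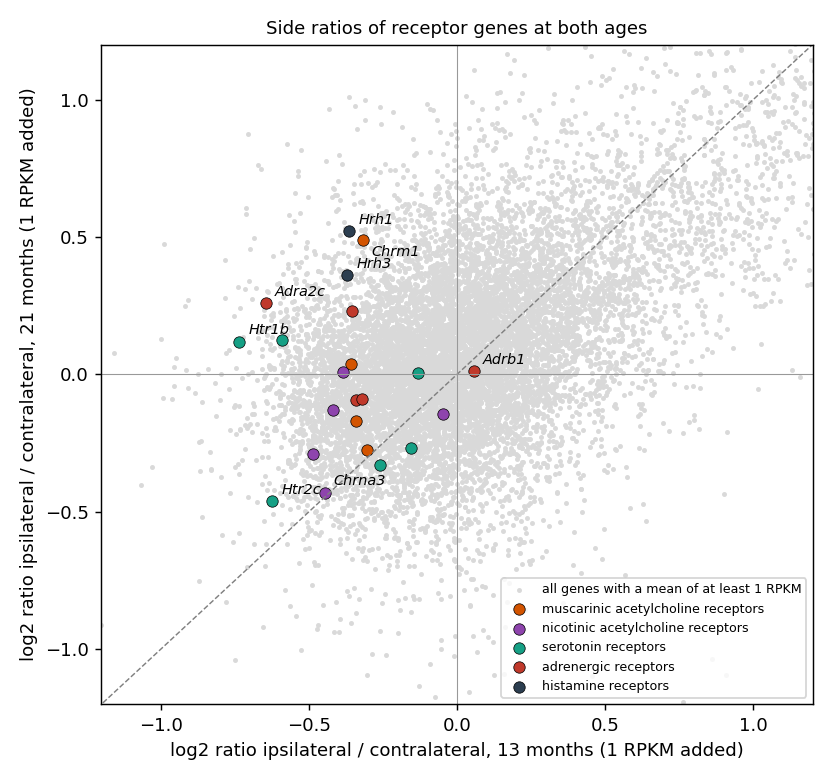
Side ratios (log2, ipsilateral over contralateral, 1 RPKM added to both) of 13 month rats on the x axis and of 21 month rats on the y axis, with 1 coloured point for each receptor gene named in the text by family and grey points for all genes averaging at least 1 RPKM (axes stop at 1.2 in size). Most receptor genes lie left of 0, Htr2c (-0.62 and -0.46) lies at the lower left, and Hrh1, Chrm1, Hrh3 and Adra2c lie at the upper left.

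Setting both ages together, 9 of the 23 genes had both ipsilateral libraries below both contralateral ones, against 22.1% of all genes. These were Adra2a, Chrm2, Chrm3, Chrna3, Chrna4, Chrna7, Htr2a, Htr2c and Htr5a. Both ipsilateral libraries lay above both contralateral ones for 1 of the 23, against 34.4%. In limma 1 of the 23 rose, against 13.3% of all genes, and 1 fell (Htr2c), against 0.814%. With no filter limma called 0 of all 17853 genes, while 2641 rose and 719 fell at an unadjusted p under 0.05. The nearest below the threshold were Chrna3 (log2 change of -0.44, adjusted p = 0.10 in limma) and Chrna7 (-0.39, adjusted p = 0.16 in limma), both lower at both ages. With 0.1 RPKM added Chrna3 passed (adjusted p = 0.0092 in limma). Both ipsilateral values of Chrna3 were under 1 RPKM, so it passed the filter only through its contralateral libraries. Its call therefore supports no difference between the sides. With side and age fitted, 1 degree of freedom was left for each gene's own error. It is how much the side effect differed by age, so genes such as Hrh1 whose sides switched count there as noise. Age itself was not tested in limma, because both sides of an age may come from the same rats.

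The side ratio was larger at 21 than at 13 months for 19 of the 23 genes, against 55.7% of all genes, with a median difference of 0.23 beside 0.05. Opposite signs of at least 0.25 in size at both ages were found for Adra2c (-0.64 and 0.26), Chrm1 (-0.32 and 0.49), Hrh1 (-0.36 and 0.52) and Hrh3 (-0.37 and 0.36). With 1 library per group this difference between ages was not tested. Neuron markers had side ratios below 0 for 9 of 9 measured past the filter at 13 months, against 48.9% of all genes. At 21 months it was 7 of 9, against 38.9%. Their medians were -0.41 and -0.28, beside 0.01 and 0.09 over all genes. In limma 1 of the 9 fell, against 0.814% of all genes. The median side ratio of 10 striatal projection neuron markers was -0.58 at 13 months and -0.24 at 21 months, and that of 6 oligodendrocyte markers -0.14 and 0.33. The part of tissue makeup in the receptor values was not tested.

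The age comparisons set the 21 month rats against the 13 month rats on each side, and share their libraries with the side comparisons. On the ipsilateral side 21 of the 23 genes were higher at 21 months, against 53.9% of all genes, with Htr2a and Htr5a lower, and the median log2 ratio was 0.27 beside 0.03. At 0.5 or more were 5 genes, against 6.53% of all genes: Adra2c (0.84), Hrh3 (0.78), Chrm1 (0.62), Hrh1 (0.60) and Htr1b (0.54). At -0.5 or less were 0 genes, against 5.94%. With median-ratio scaling 4.61% of all genes and 4 of the 23 were past 0.5 upward, and 7.82% of all genes and 0 of the 23 downward. On the contralateral side ratios lay between -0.32 (Htr1b) and 0.26 (Chrna5). Above 0 were 14 of the 23, against 40.8% of all genes, and the median was 0.03 beside -0.03. There 0 of the 23 were past 0.5 in either direction, against 0.905% of all genes upward and 0.666% downward. The contralateral libraries therefore differed less from each other than the ipsilateral ones in these genes, as they did over all genes.

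**Figure D3:**
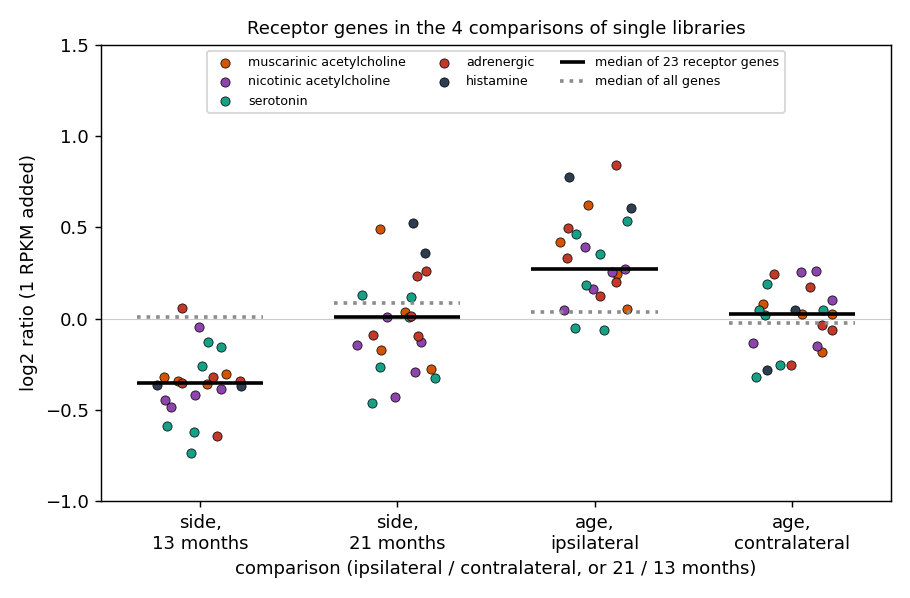
Log2 ratios of RPKM, after adding 1 RPKM, of the receptor genes named in the text (points, coloured by family) in the comparison of the sides at each age and of the ages on each side, with the median of the 23 genes as a black line and that of all genes as a dotted grey line. The black line lies at -0.35 for the sides at 13 months and at 0.01 at 21 months, and at 0.27 and 0.03 for the ages on the ipsilateral and contralateral side.

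Grouped by how the receptor signals, the 8 Gi-coupled, 7 Gq-coupled and 6 channel genes past the filter all had side ratios below 0 at 13 months, with medians of -0.36, -0.34 and -0.40. These are the same 21 genes counted below 0 above, beside 48.9% of all genes, so the grouping is a description and adds no further evidence. The Gs-coupled Adrb1 had ratios of 0.06 and 0.01. At 21 months the medians were 0.08 for Gi, -0.09 for Gq and -0.14 for the channels. The channel genes had a narrower range of 21 month side ratios (-0.43 to 0.01) than the Gq-coupled genes (-0.46 to 0.52).

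The 24 genes under the filter were at most 0.89 RPKM in every library apart from Htr5b, a rodent-specific serotonin receptor. Htr5b was listed at 0.57 RPKM ipsilaterally against 1.38 RPKM contralaterally at 13 months, and at 0.81 against 0.85 RPKM at 21 months, and passed 1 RPKM in the 13 month contralateral library alone. The 9 nicotinic subunits ranged from 0.00 to 0.53 RPKM, the 3 adrenergic receptors from 0.03 to 0.65 RPKM and the 3 dopamine receptors D3 to D5 from 0.00 to 0.33 RPKM. Chrna9 and Chrna10, subunits of the receptor of cochlear hair cells, and Hrh4, the histamine receptor of blood cells, were below 0.05 RPKM in every library. Drd4 was listed at 0 in both 13 month libraries, and the 21 month libraries held 0.04 and 0.05 RPKM of it. At such levels a step of 0.01 RPKM is a large part of the value, and no fold is given. The filter works on the mean of both sides and ages, and Htr1b, Chrna3 and Chrna5 passed it with at least 1 library under 1 RPKM.

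**Figure D4:**
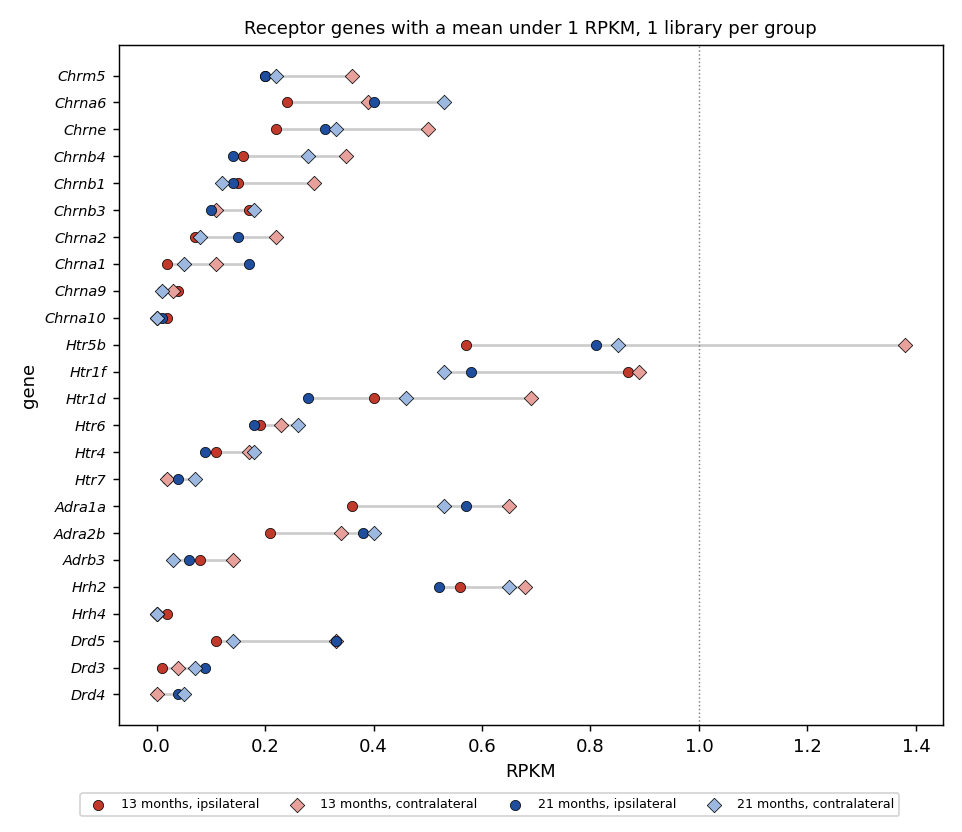
RPKM on a linear axis of the 24 receptor genes with a mean under 1 RPKM, grouped by receptor family, with 1 point for each of the 4 libraries. Htr5b alone passes the dotted line at 1 RPKM, at 1.38 RPKM in the 13 month contralateral library, and Chrna9, Chrna10, Hrh4 and Drd4 lie near 0.

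The dopamine receptors of the striatum, D1 and D2, are not among the 47 genes and give the scale for the receptors D3 to D5. Drd1 was listed at 4.68 RPKM ipsilaterally against 5.59 RPKM contralaterally at 13 months, and at 5.22 against 6.14 RPKM at 21 months. Drd2 was listed at 2.35 against 5.31 RPKM, then at 6.26 against 6.18 RPKM. Drd2 was low in the 13 month ipsilateral library alone, as were Chrm4 and Adra2c. Neither passed in limma (log2 changes of -0.21 and -0.45).

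Genes that make, carry and break down the transmitters were followed beside the receptors. In the acetylcholine list 12 of 13 genes were in the table and 8 averaged at least 1 RPKM. In limma 0 of the 8 rose, against 13.3% of all genes, and 0 fell, against 0.814%. At an unadjusted p under 0.05 the counts were also 0 and 0, against 18.9% and 4.47% of all genes. The median side ratio of the 8 genes was -0.37 at 13 months and -0.07 at 21 months. Ache, the acetylcholinesterase gene, was listed at 5.01 against 8.08 RPKM, then at 6.72 against 7.34 RPKM, ipsilateral first, and the choline transporter gene Slc5a7 at 1.46 against 1.93 RPKM, then at 1.40 against 2.24 RPKM. The genes of proteins that bind or assemble nicotinic receptors were Lynx1 (log2 side ratios of -0.52 and 0.02), Lypd1 (-0.33 and -0.02), Lypd6 (-0.30 and -0.05), Lypd6b (-0.55 and -0.08), Ric3 (-0.23 and -0.31) and Tmem35a (-0.42 and 0.24). All 6 lay below 0 at 13 months, as did 48.9% of all genes.

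Of the serotonin list 5 of 8 genes averaged at least 1 RPKM, and limma called 2 of the 5 lower on the ipsilateral side, against 0.814% of all genes. These were Tph1 and Tph2, the tryptophan hydroxylases of the pineal gland and of serotonin neurons. Each passed the filter only through 1 contralateral library in which it was above 1 RPKM, so these calls support no difference between the sides. Tph2 was listed at 0.30 RPKM ipsilaterally against 0.88 RPKM contralaterally at 13 months, and at 0.47 against 2.46 RPKM at 21 months, highest in the 21 month contralateral library. Tph1 was listed at 0.27 against 10.38 RPKM, then at 0.13 against 0.44 RPKM, and so was high in the 13 month contralateral library alone. A fit without that library has no residual degree of freedom, so the Tph1 call was not tested without it. Of 10 pineal markers, Tph1 included, 6 were highest in that library, against 20.3% of all genes past the filter. Gngt1 was at 6.05 and Pde6g at 11.02 RPKM there. Asmt at 0.28, Crx at 0.21 and Sag at 0.21 RPKM were highest there too, but averaged under the filter. The other markers were not highest there: Aanat was at 0.01, Pde6b at 0.03, Rom1 at 5.29 and Gngt2 at 3.23 RPKM. Gngt2 rose on the ipsilateral side in limma. The pineal receptor genes Adrb1 and Adra1b were not highest in that library, at 2.17 and 2.22 RPKM.

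Of the catecholamine list 7 of 12 genes passed the filter, 2 of which rose in limma, against 13.3% of all genes, and 1 of which fell, against 0.814%. Gch1, which makes the cofactor of the hydroxylases, rose by 0.82 on the log2 scale (adjusted p = 0.0017 in limma). It was listed at 2.31 RPKM ipsilaterally against 1.19 RPKM contralaterally in the younger rats and 2.07 against 0.48 RPKM in the older ones. Its contralateral values alone would not reach a mean of 1 RPKM, so it passed the filter through the ipsilateral libraries. The Gch1 call therefore supports no difference between the sides. Th, the tyrosine hydroxylase gene, fell by 0.68 (adjusted p = 0.013 in limma), with 1.27 against 3.63 RPKM, then 3.57 against 4.77 RPKM.

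The dopamine transporter gene Slc6a3 was listed at 0.38 against 1.23 RPKM, then at 1.16 against 1.50 RPKM, ipsilateral first, and did not pass. The monoamine oxidase genes Maoa (log2 side ratios of 0.22 and 0.19) and Maob (0.05 and 0.04) and the decarboxylase gene Ddc (-0.50 and -0.17) did not pass either. Of the histamine list Hnmt, which methylates histamine, had side ratios of -0.22 and 0.07 and did not pass. Gch1 is also known to be induced in macrophages, and the part of those cells in its values was not tested.

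**Figure D5:**
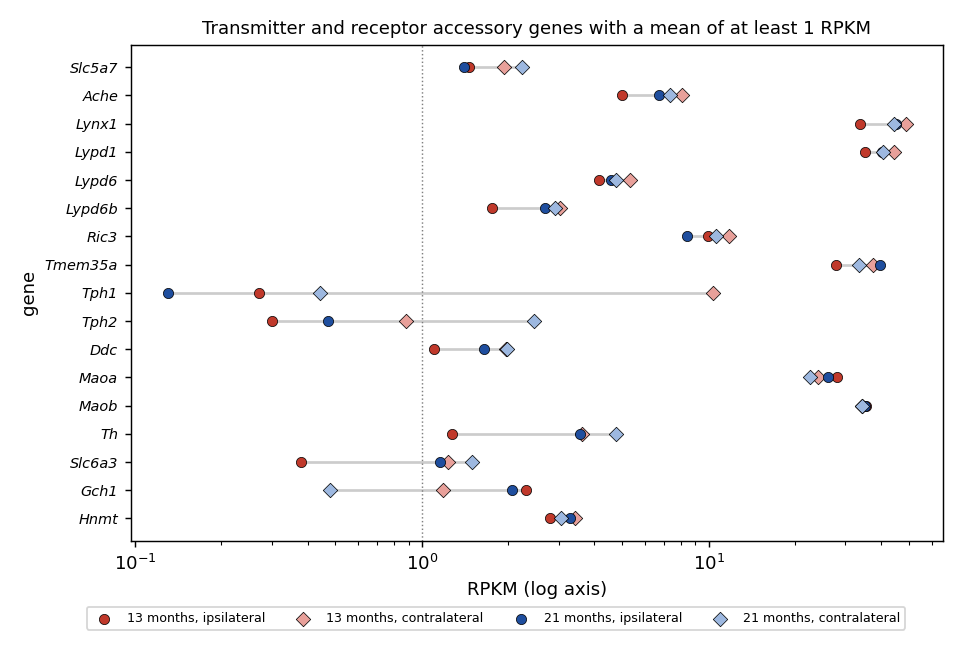
RPKM on a log axis of transmitter and receptor accessory genes averaging at least 1 RPKM, with 1 point for each of the 4 libraries. Gch1 is higher in both ipsilateral libraries (2.31 and 2.07 RPKM) than in the contralateral ones (1.19 and 0.48 RPKM), Th and Slc6a3 lie far to the left in the 13 month ipsilateral library (1.27 and 0.38 RPKM), and Tph1 is spread by the 13 month contralateral library (10.38 RPKM).

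Downstream of the receptors, 30 of 32 listed genes of G proteins, adenylyl cyclases, phospholipases, arrestins and regulators averaged at least 1 RPKM. In limma 3 of the 30 rose, against 13.3% of all genes, and 2 fell, against 0.814%. The median side ratio of the 30 genes was -0.23 at 13 months and 0.01 at 21 months. Those that rose were Gnai2 (log2 side ratios of 0.67 and 1.03), Gnai3 (0.89 and 0.56) and Plcb3 (0.97 and 0.38). Gnai2 and Gnai3 encode Gi subunits that immune cells carry too. Those that fell were Plcb4 (-0.37 and -0.79), a phospholipase C, and Rgs9 (-0.87 and -0.25), a regulator of G proteins in striatal neurons. Plcb1, another phospholipase C, had ratios of -0.37 and -0.57 and did not pass. Plcb3 and Rgs9 were named after their values were seen.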

How the data were processed

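The authors deposited 1 table of RPKM values (reads scaled to gene length and to the mapped reads of the library) for 17853 genes in 4 libraries, rounded to 0.01. Cutadapt, TopHat2, edgeR and the human build GRCh38 are named, without versions or roles, per the submitters' processing notes, while the table carries rat Ensembl identifiers, so the build is not settled. How reads were counted is not given in the sources used here, nor are gene lengths. Columns were matched to samples by age and side code. After adding 1 RPKM, log2 values were taken, and genes averaging under 1 RPKM were left out, which kept 12160. Single libraries were compared by log2 ratio, with no test, and counted past 0.5 in either direction. As a secondary summary, a model of side plus age was fitted over all 12160 genes with limma 3.58.1 in R 4.3.3, two-sided, with Benjamini-Hochberg adjustment at 0.05. The variance of each gene was moved towards a value shared by all genes (empirical Bayes), so SE and p rest largely on other genes. The fitting step was tested on simulated data. The alternatives were 0.1 RPKM added, no filter, a minimum mean of 5 RPKM, 2 other scalings, a log2 ratio of 1, and the contralateral library of the other age.

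Members and gene lists were chosen with earlier results of these data known. Every receptor gene past that filter was to be named, and lower ones by range, or by name where a library reached 1 RPKM or all stayed below 0.05 RPKM. Of the other lists, transmitter and accessory genes past it were named, and the 2 highest and 2 lowest signalling genes by the smaller side ratio of both ages. Some results of single genes are not reported here, though the genes count in totals and medians. Grouping receptors by G protein was added after values were seen.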

Additional observations from a re-analysis of the deposited data

Results flagged for a closer look

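For 4 receptor genes the ipsilateral library lay below the contralateral one at 13 months and above it at 21 months, by a log2 ratio of at least 0.25 in size each time. The ratios were -0.64 and 0.26 for Adra2c, -0.32 and 0.49 for Chrm1, -0.36 and 0.52 for Hrh1, and -0.37 and 0.36 for Hrh3. The difference between the ages was not tested, since each group is 1 library. Against the contralateral library of the other age the ratios were -0.58 and 0.20 for Adra2c and -0.13 and 0.30 for Chrm1. They were -0.08 and 0.24 for Hrh1, and -0.41 and 0.41 for Hrh3. Only Hrh3 kept at least 0.25 in size at both ages. The signs could not change, because in each of the 4 genes both contralateral values lay between the ipsilateral ones.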

How the results depend on the processing

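Among 467 values of single genes under the alternatives, 17 changed sign, and 0 of those had been past 0.5. The 467 include values with no filter and with a mean of at least 5 RPKM. Those settings change only which genes are kept, so their values could not change sign. In this paragraph percentages in brackets are shares of all genes under the same setting, and a mean of at least 5 RPKM kept 9 receptor genes. At 13 months the genes at -0.5 or less were 4 of 23 (4.09%). They were 8 with 0.1 RPKM added (6.88%), 2 with a mean of at least 5 RPKM (4.8%) and 0 at a log2 ratio of 1 (0.0658%). The 1 gene upward (15.2%) was 0 with a mean of at least 5 RPKM (13.5%) and 0 at a log2 ratio of 1 (7.19%). The median of -0.35 was -0.22 with no filter. At 21 months the 2 upward genes (16.3%) were 0 with a mean of at least 5 RPKM (15.5%) and 0 at a log2 ratio of 1 (5.61%). They were 1 with median-ratio scaling (12.8%), without mitochondrial genes (12.6%) and against the 13 month contralateral library (14.7%). The 0 downward genes (2.94%) were 1 with 0.1 RPKM added (4.4%), 1 with median-ratio scaling (5.22%) and 1 without mitochondrial genes (5.37%). For age on the ipsilateral side the 5 upward genes (6.53%) were 8 with 0.1 RPKM added (9.56%). They were 3 with a mean of at least 5 RPKM (7.33%) and 0 at a log2 ratio of 1 (0.321%). The median of 0.27 for that comparison was 0.39 with 0.1 RPKM added, 0.13 with no filter and 0.39 with a mean of at least 5 RPKM. The limma calls of 1 gene risen and 1 fallen became 0 and 0 with no filter, where 1 receptor gene rose and 5 fell at an unadjusted p under 0.05, and 0 and 0 with a mean of at least 5 RPKM, where the counts were 0 and 1. Over all genes limma called 1618 risen and 99 fallen, 1541 and 248 with median-ratio scaling, and 841 and 40 with a mean of at least 5 RPKM. Apart from settings that keep fewer genes or ask for a larger ratio, the cause was not tested. The depth behind each value is unknown, so low genes are the least certain. Leaving out a library ended the fit or the ratio, so it was not run.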
